A study of Mus musculus with 3 samples.

Results

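The genes described here are 10 adhesion molecules that leukocytes and vessel walls use to hold on to each other, measured in single brain cells of mice. They were chosen by name, with earlier results of these data known. They comprise 5 ligands that vessels can display (Icam1, Icam2, Vcam1, Selp and Sele) and 5 receptors or receptor subunits of leukocytes (Selplg, Itgal, Itga4, Itgb1 and Itgb2). All 10 were present in both deposited tables, which held 19208 genes for brains with metastases and 17453 genes for naive brains. The cells came from 2 metastasis-bearing Cx3cr1-/- brains, 2 metastasis-bearing Cx3cr1+/- brains, 2 naive Cx3cr1-/- brains and 2 naive Cx3cr1+/- brains. Every mouse was a C57Bl/6 female aged 2 to 3 months that had lost at least 1 functional copy of Cx3cr1, which encodes the fractalkine receptor, so no group was wild type. Metastases were seeded by injecting E0771 mouse mammary tumour cells into the carotid artery, and those brains were taken about 2 weeks later. Vessels were flushed with saline, 1 hemisphere per brain was digested, and immune cells were enriched on a Percoll gradient. Each brain received its own barcoded hashtag antibody before all 8 were loaded into 1 pooled single-cell RNA library. Brains are numbered 1 and 2 within each genotype and state by their hashtag order, and a brain is the replicate throughout.

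Leukocytes leave the blood in steps. Selectins on the vessel wall catch flowing cells through sugar-decorated PSGL-1, the product of Selplg, and integrins on the leukocyte then bind immunoglobulin-family ligands and stop the cell. LFA-1, made of the Itgal and Itgb2 products, binds ICAM-1 and ICAM-2, and VLA-4, made of the Itga4 and Itgb1 products, binds VCAM-1. In the brain these contacts take place mainly in venules, and VLA-4 is a drug target in neuroinflammation.

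The tables listed 13455 cells. Since 1138 barcodes occurred in both, they were removed from each, which left 8443 cells from metastasis-bearing and 2736 from naive brains. Clusters are the authors' own and carry a "-like" name only where their markers bore it out. The classes with enough cells in every brain were microglia-like, monocyte/macrophage-like, T-like, NK-like, vascular-like and Krt8-high (keratin-rich, tumour-like) cells with metastases, and microglia-like and T/NK-like cells in naive brains. Values are CPM, the authors' corrected UMIs over the cells of a class in a brain and scaled to a total of 1000000, and a class with under 20 cells in a brain has no value there. Subsets of the vascular-like cells, and choroid plexus-like cells for Vcam1, are exceptions that rest on fewer cells in some brains. Naive brains also held 136 Krt8-high cells, with a median of 50.5 hashtag UMIs against 2056 in naive T/NK-like cells, so the brain that some naive cells came from is uncertain. The median depth of a brain's cells was 7823.5 to 71585 raw UMIs with metastases and 6181 to 7096 raw UMIs in naive brains. Cx3cr1 followed the labels, at 113.5 and 31.6 CPM in microglia-like cells of the metastasis-bearing Cx3cr1-/- brains and 1363.2 and 1464.0 CPM in those of the Cx3cr1+/- brains.

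The regulatory stretches of 3 ligand genes are shown first, because Sele, Selp and Icam1 were found together in 1 subset of endothelial cells. Each line gives the 250 bases before the annotated start site from RefSeq's GRCm38.p6 table, written 5′ to 3′, and 5 of the 10 genes had an entry there. Capitals mark the letters TGANTCA and GGANNTTCC. TGANTCA is a loose form of the AP-1 site that takes any base in the middle, where the stricter site has C or G. GGANNTTCC is a loose form of the NF-kappaB site that was searched after the full kappaB consensus gave no match in those 5 windows.
Sele, chr1:164047984-164048233, plus strand: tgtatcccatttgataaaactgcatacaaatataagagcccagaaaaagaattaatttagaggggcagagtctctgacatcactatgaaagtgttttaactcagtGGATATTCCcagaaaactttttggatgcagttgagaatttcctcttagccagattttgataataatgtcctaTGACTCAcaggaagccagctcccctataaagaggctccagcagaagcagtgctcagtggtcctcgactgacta
Selp, chr1:164115014-164115263, plus strand: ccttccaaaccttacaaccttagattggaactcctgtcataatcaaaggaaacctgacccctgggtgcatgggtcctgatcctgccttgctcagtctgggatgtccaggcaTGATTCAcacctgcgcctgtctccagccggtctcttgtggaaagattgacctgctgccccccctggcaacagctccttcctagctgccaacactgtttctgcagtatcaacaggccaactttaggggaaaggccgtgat
Icam1, chr9:21015690-21015939, plus strand: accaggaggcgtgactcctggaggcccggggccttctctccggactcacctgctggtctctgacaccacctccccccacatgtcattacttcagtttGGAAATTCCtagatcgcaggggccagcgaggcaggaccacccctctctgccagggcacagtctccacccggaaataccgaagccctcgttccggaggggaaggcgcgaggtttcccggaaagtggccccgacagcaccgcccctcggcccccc
Both strands were searched. Sele held GGATATTCC beginning 145 bases before its start site and TGACTCA beginning 73 bases before it. Icam1 held GGAAATTCC beginning 153 bases before its start site. Selp held TGATTCA beginning 139 bases before its own, which matches the loose form of the AP-1 site only. Among 32851 promoter windows of the same length, 3.59% held GGANNTTCC, 6.75% held TGANTCA and 7.25% held the full kappaB consensus. These are matches of letters and not evidence of binding. The annotated Sele gene spans chr1:164039614-164058487, so its window lies inside the annotated gene, while the Selp and Icam1 windows end where those genes begin. Vcam1 (chr3:116110020-116129688) and Icam2 (chr11:106377656-106388139) are shown without a window.

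Among classes with at least 20 cells in every metastasis-bearing brain, the ligands Icam2, Vcam1, Selp and Sele had their highest level in vascular-like cells. Icam1 had its highest level in microglia-like cells. Icam2, which resting endothelium displays as an LFA-1 ligand, had 251.7 and 230.9 CPM in vascular-like cells of Cx3cr1-/- brains and 124.1 and 196.5 CPM in those of Cx3cr1+/- brains. Vcam1, the VLA-4 ligand that inflamed endothelium displays, had 250.9 and 232.3 CPM in Cx3cr1-/- and 393.7 and 572.3 CPM in Cx3cr1+/- vascular-like cells. No other class with a value in all 4 brains exceeded 19.4 CPM of Icam2 or 41.3 CPM of Vcam1 in any brain, so for both genes the vascular-like range stood clear of those classes. Choroid plexus-like cells, at only 2 to 17 per brain, did overlap the vascular-like range of Vcam1. They had 436.4 and 219.9 CPM of it in Cx3cr1-/- and 228.3 and 393.8 CPM in Cx3cr1+/- brains. Selp, whose product P-selectin is stored in endothelial cells and platelets, had 33.6 and 5.7 CPM in Cx3cr1-/- and 17.6 and 80.7 CPM in Cx3cr1+/- vascular-like cells. Sele, whose product E-selectin is made by activated endothelium, had 11.7 and 1.4 CPM in Cx3cr1-/- and 9.0 and 57.1 CPM in Cx3cr1+/- vascular-like cells. Cx3cr1+/- brain 2 was the highest for both selectins, and the genotypes overlapped. The lowest vascular-like value of Sele lay below the Krt8-high cells, which had 2.0 to 6.2 CPM, so those ranges overlapped.

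Selectin transcripts were rare. Selp had a UMI in 39 of 454 vascular-like cells (8.59%, exact 95% interval 6.18 to 11.6; median 9011 raw UMIs per cell). In T-like cells, which should lack the gene, it had a UMI in 5 of 1201 (0.416%; median 5409 raw UMIs), and 1 of those cells held 12 of their 16 UMIs. Between these lay monocyte/macrophage-like cells, with 46 of 1786 (2.58%; median 12032.5 raw UMIs), neutrophil-like cells, with 2 of 94 (2.13%; 3282), and NK-like cells, with 8 of 747 (1.07%; 4136). Sele had a UMI in 25 vascular-like cells (5.51%, 3.59 to 8.02) and in 1 T-like cell (0.0833%). After every cell was thinned to 2000 UMIs, Selp remained in 3.74% of vascular-like and 0.0833% of T-like cells, and Sele in 1.76% of vascular-like and 0% of T-like cells. Sele also had a UMI in 76 of 2732 Krt8-high cells (2.78%), whose median depth was 103001.5 raw UMIs, and in 0.293% of those cells after thinning. Intervals of this kind cover counting error only. Vcam1 was also found in choroid plexus-like cells, with a UMI in 27 of 37 (73.0%, 55.9 to 86.2; median 34954 raw UMIs), too few cells per brain for a firm level.

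Icam1 was most abundant in microglia-like cells, which resemble the resident macrophages of the brain. It had 551.7 and 815.7 CPM in microglia-like cells of Cx3cr1-/- brains and 931.6 and 843.8 CPM in those of Cx3cr1+/- brains (mean 785.7 ± 163.6, SD, n = 4). The next classes were NK-like cells at 184.8 ± 101.7 CPM and vascular-like cells at 179.9 ± 41.1 CPM (SD, n = 4 each). Their highest brains, at 284.4 and 233.2 CPM, lay below the lowest microglia-like value. Those neighbours in the order overlapped each other and also monocyte/macrophage-like cells at 141.8 ± 25.0 CPM. Icam1 had a UMI in 93.9% of 654 microglia-like cells and in 31.4% of 1201 T-like cells, or 64.1% and 11.99% of them after thinning to 2000 UMIs. In naive brains microglia-like cells had 949.4 and 744.1 CPM of Icam1 in Cx3cr1-/- and 842.4 and 825.4 CPM in Cx3cr1+/- brains, above T/NK-like cells at 142.4 ± 48.6 CPM (SD, n = 4). An unnamed naive cluster of 554 cells with a median of 1405 raw UMIs, in which the microglia marker list was the highest, had 960.9 to 1090.0 CPM of Icam1.

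**Figure D1:**
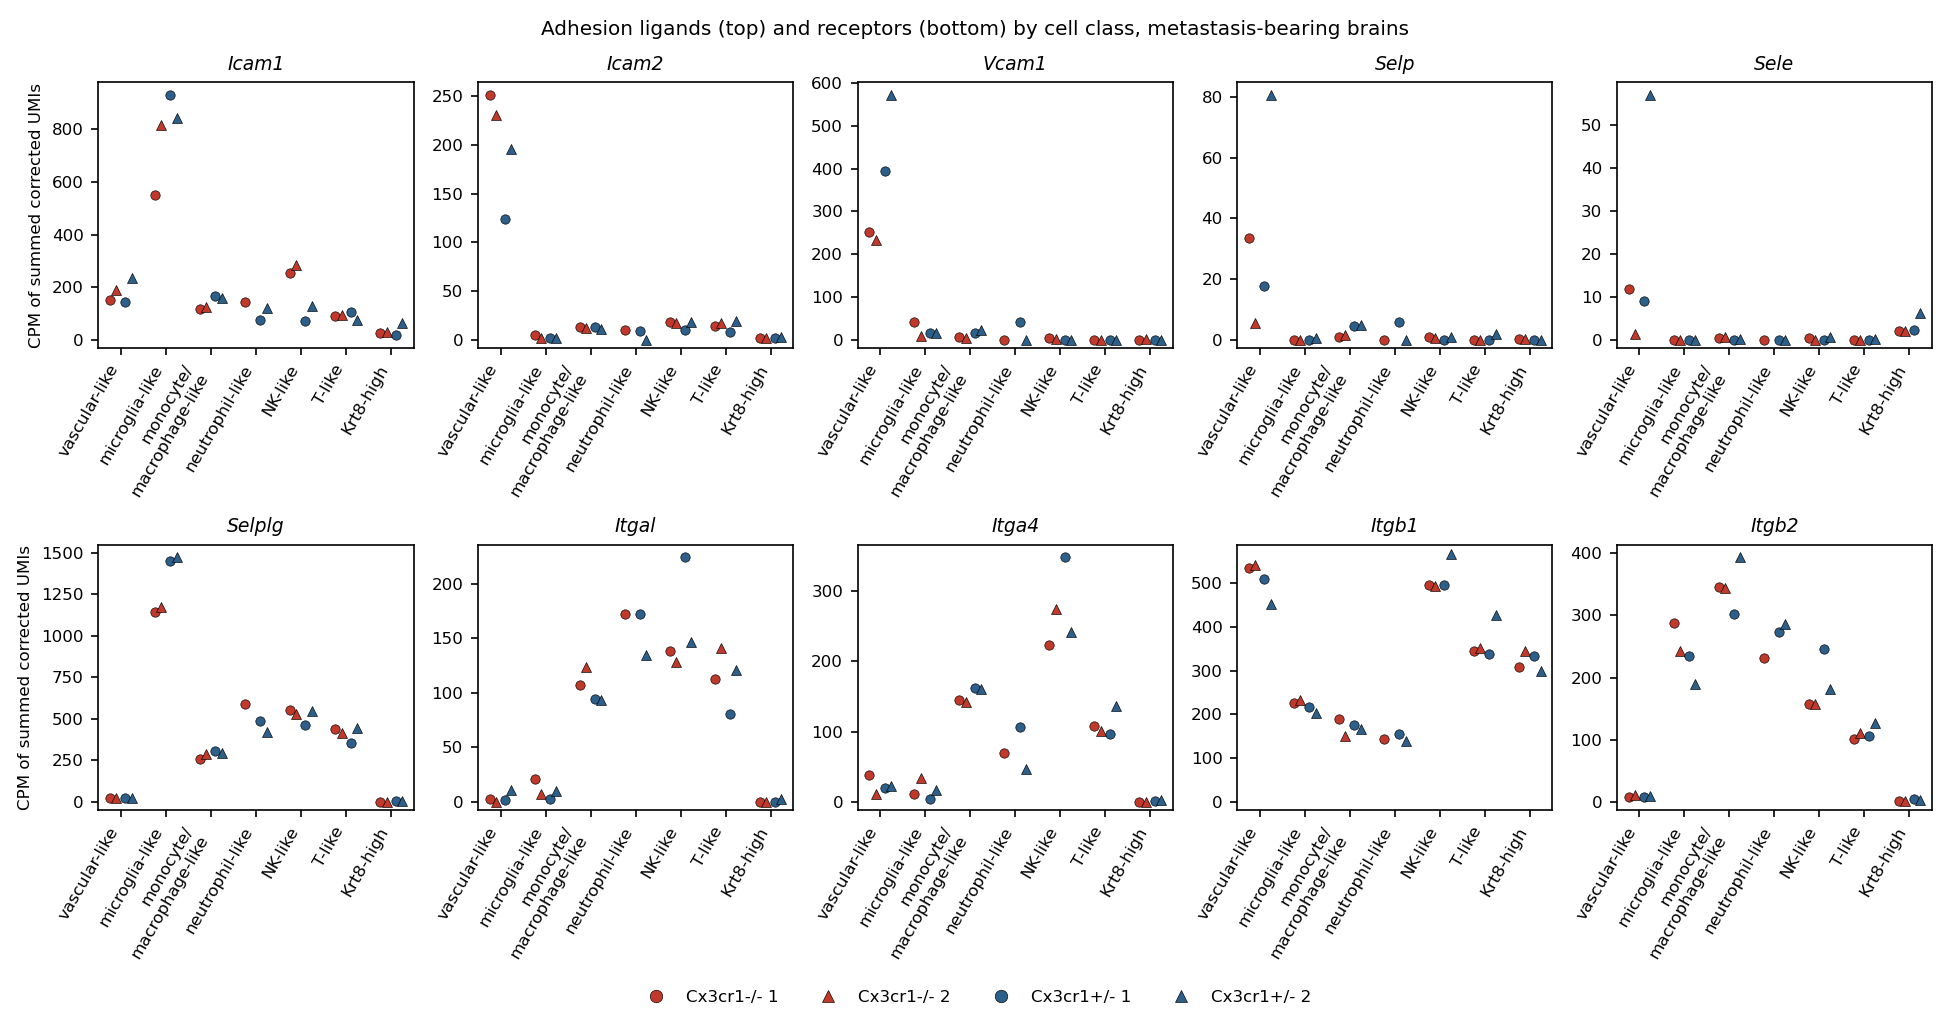
Level of each ligand (top row) and receptor (bottom row) in CPM of summed corrected UMIs, on a linear axis of its own, by cell class in metastasis-bearing brains; each point is 1 brain, red for Cx3cr1-/- and blue for Cx3cr1+/-, and a class with under 20 cells in a brain has no point. Icam2, Vcam1, Selp and Sele stand highest in vascular-like cells, and Icam1 and Selplg in microglia-like cells, at 785.7 ± 163.6 and 1309.2 ± 175.7 CPM (SD, n = 4).

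The vascular-like cluster mixed endothelial cells with the mural cells (pericytes and smooth muscle) that wrap them, and the ligands differed between these. With metastases, 264 of its 454 cells drew at least 0.8 of their marker UMIs from the endothelial list (Cldn5, Flt1, Pecam1, Cdh5, Ly6c1, Kdr and Tek) rather than the mural list (Pdgfrb, Rgs5, Kcnj8, Acta2, Tagln, Vtn and Myl9). Another 100 drew at most 0.2 of them from the endothelial list and are called mural-side, and 90 lay between, with 16 cells close to a limit. Icam2 had 313.1 and 356.9 CPM in endothelial-side cells of Cx3cr1-/- brains and 201.6 and 295.9 CPM in those of Cx3cr1+/- brains, whereas mural-side cells had at most 4.9 CPM in any brain. Vcam1 had 284.8 and 270.9 CPM in Cx3cr1-/- and 503.1 and 791.1 CPM in Cx3cr1+/- endothelial-side cells. Mural-side cells had 7.3 and 73.6 CPM of Vcam1 in Cx3cr1-/- and 138.1 and 188.9 CPM in Cx3cr1+/- brains, from 11 to 52 cells per brain. Vcam1 was thus lower on the mural side within each brain. Neither selectin had a UMI in the 100 mural-side cells, which allows up to 3.62% of such cells to hold a UMI (exact 95% interval over cells pooled from 4 brains, counting error only) and sets no limit on the cells that express one.

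Within the endothelial side, 4 of the 5 ligands were concentrated in cells of venous rather than capillary character, Sele in 3 of 4 brains only. A cell was assigned to the zone whose short marker list gave it the most UMIs, with Nr2f2, Vwf, Ackr1, Slc38a5 and Lcn2 for veins, Mfsd2a, Slc16a1, Tfrc and Slco1a4 for capillaries, and Bmx, Gkn3, Sema3g, Vegfc and Hey1 for arteries. This gave 98 venous-led, 105 capillary-led and 28 arterial-led cells, and none of the 10 genes was on these lists. Another 8 cells were tied between lists and 25 had no leading list. Vcam1 had 539.4 and 815.4 CPM in venous-led cells of Cx3cr1-/- brains and 1272.9 and 1523.9 CPM in those of Cx3cr1+/- brains. In capillary-led cells it had 83.5 and 57.8 CPM in Cx3cr1-/- and 68.4 and 74.0 CPM in Cx3cr1+/- brains, so the venous and capillary values did not overlap. Icam1 had 324.7 and 650.7 CPM in Cx3cr1-/- and 421.2 and 668.4 CPM in Cx3cr1+/- venous-led cells. The capillary-led cells had 88.4 and 36.1 CPM of Icam1 in Cx3cr1-/- and 9.8 and 37.0 CPM in Cx3cr1+/- brains, again with no overlap. Arterial-led cells, at 5 to 11 per brain, had 0.0 to 167.9 CPM of Vcam1 and 14.1 to 254.7 CPM of Icam1.

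The selectins followed the same pattern, with more scatter. Selp had 75.1 and 32.9 CPM in Cx3cr1-/- and 72.9 and 294.4 CPM in Cx3cr1+/- venous-led cells, and no UMI in the 105 capillary-led cells. In arterial-led cells Selp had 62.0 CPM in Cx3cr1-/- brain 1, from 2 of 5 cells, and no UMI in the other brains. Sele had 26.8 and 0.0 CPM in Cx3cr1-/- and 40.0 and 214.6 CPM in Cx3cr1+/- venous-led cells, against 7.4 and 7.2 CPM in Cx3cr1-/- and 0.0 and 0.0 CPM in Cx3cr1+/- capillary-led cells. Cx3cr1+/- brain 2 was far above the other brains for both. Icam2 did not share the contrast, with 287.3 ± 93.0 CPM in venous-led and 260.6 ± 51.4 CPM in capillary-led cells (SD, n = 4 brains). On the log2(CPM + 10) scale the venous minus capillary difference was 3.60 ± 0.74 for Vcam1, 3.48 ± 1.17 for Icam1 and 3.29 ± 1.18 for Selp (SD), positive in 4 of 4 brains for each. For Sele it was 1.78 ± 2.21, positive in 3 of 4 brains, and for Icam2 0.09 ± 0.40, positive in 2 of 4. A two-sided exact sign-flip permutation test over 4 brains cannot go below 0.125, which is what Vcam1, Icam1 and Selp gave (0.208 adjusted over the 5 ligands), with 0.25 for Sele and 0.75 for Icam2. Lcn2 is also a neutrophil gene, and without it in the venous list, an alternative chosen after seeing the data, the difference for Vcam1 was 2.46 and positive in 3 of 4 brains.

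**Figure D2:**
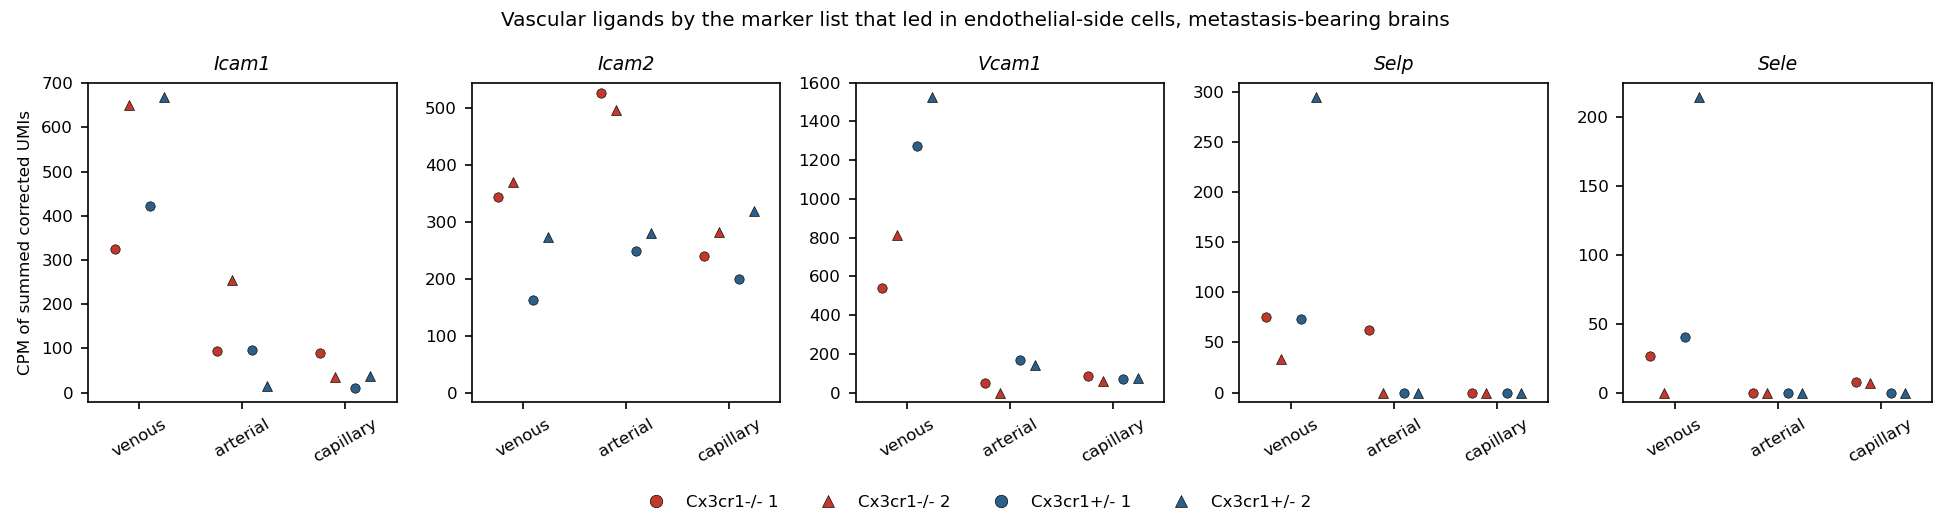
Level of the 5 vascular ligands in CPM of summed corrected UMIs in endothelial-side cells of metastasis-bearing brains, by the zone list that led in a cell; each point is 1 brain, red for Cx3cr1-/- and blue for Cx3cr1+/-, and each panel has its own linear axis. Venous-led cells stand above capillary-led cells in 4 of 4 brains for Vcam1, Icam1 and Selp and in 2 of 4 for Icam2; a point can rest on as few as 5 arterial-led or 9 venous-led cells.

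Over cells pooled from the 4 metastasis-bearing brains, the inducible ligands also often lay in the same single cells. Of the 35 endothelial-side cells with a Selp UMI, 32 (91.4%) also had a Vcam1 UMI and 29 (82.9%) an Icam1 UMI, against 37.6% for each among the 229 cells without Selp. Of the 22 cells with a Sele UMI, 16 (72.7%) had Selp and 21 (95.5%) had Vcam1, against 7.85% and 40.1% of the cells without Sele. Icam2 had a UMI in 81.4% of all 264 endothelial-side cells. Cells with more UMIs hold more of every transcript, and these shares were not matched for depth. They were not split by brain either. Cx3cr1+/- brain 2 alone held 11 of the 35 cells with Selp and 11 of the 22 with Sele. It also held 96 of the 163 Selp UMIs and 70 of the 101 Sele UMIs of endothelial-side cells.

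Among the receptors, Selplg had its highest level in microglia-like cells and was high in every leukocyte class of the metastasis-bearing brains that had values. It had 1142.8 and 1172.5 CPM in microglia-like cells of Cx3cr1-/- brains and 1447.5 and 1474.0 CPM in those of Cx3cr1+/- brains. NK-like cells followed at 522.1 ± 40.1 CPM, T-like cells had 412.2 ± 40.7 CPM and monocyte/macrophage-like cells 287.2 ± 19.8 CPM (SD, n = 4 each), and none of these ranges overlapped. In the 3 brains with enough neutrophil-like cells the level was 498.3 ± 83.8 CPM, which overlapped both lymphoid classes. Vascular-like cells had 22.3 ± 0.89 CPM and Krt8-high cells 2.0 ± 1.7 CPM (SD, n = 4 each).

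Both alpha chains set microglia-like cells apart from the classes that enter from the blood. Itgal, the alpha chain of LFA-1, had 20.6 and 7.3 CPM in Cx3cr1-/- and 3.1 and 10.0 CPM in Cx3cr1+/- microglia-like cells. In monocyte/macrophage-like cells Itgal had 107.3 and 124.1 CPM in Cx3cr1-/- and 94.3 and 93.6 CPM in Cx3cr1+/- brains, which was 1.94 to 2.99 higher on the log2(CPM + 10) scale within a brain. NK-like and T-like cells reached 159.7 ± 44.1 and 114.1 ± 25.1 CPM (SD, n = 4 each) and neutrophil-like cells 160.0 ± 21.6 CPM (SD, n = 3). The NK-like range overlapped that of T-like and of neutrophil-like cells. Itga4, the alpha chain of VLA-4, had 11.3 and 34.0 CPM in Cx3cr1-/- and 4.2 and 17.0 CPM in Cx3cr1+/- microglia-like cells. Monocyte/macrophage-like cells had 145.1 and 142.1 CPM of Itga4 in Cx3cr1-/- and 161.3 and 160.5 CPM in Cx3cr1+/- brains, a mean difference from microglia-like cells of 2.73 ± 0.74 (log2, SD, n = 4). Itga4 was highest in NK-like cells at 271.7 ± 55.1 CPM, above the 110.2 ± 17.7 CPM of T-like cells in 4 of 4 brains. Markers of blood-derived classes were not at 0 in microglia-like cells, and they did not run alike over the brains. The NK cell list summed to 226 and 138 CPM in Cx3cr1-/- and 5.28 and 84.5 CPM in Cx3cr1+/- brains. For the T cell list the sums were 125 and 121 CPM in Cx3cr1-/- and 18.5 and 213 CPM in Cx3cr1+/- brains. For the neutrophil list they were 143 and 117 CPM in Cx3cr1-/- and 1063 and 135 CPM in Cx3cr1+/- brains. The part of these lists in the low Itgal and Itga4 values was not tested.

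Itgb2, the beta chain that LFA-1 shares with Mac-1, was present in microglia-like cells at a level of the same order as in infiltrating myeloid cells. It had 288.1 and 242.8 CPM in Cx3cr1-/- and 235.2 and 188.9 CPM in Cx3cr1+/- microglia-like cells, and 346.4 ± 37.8 CPM in monocyte/macrophage-like cells (SD, n = 4), which were higher in 4 of 4 brains. Itgam, the alpha chain of Mac-1, which also binds ICAM-1, had 455.1 and 437.0 CPM in Cx3cr1-/- and 481.1 and 473.0 CPM in Cx3cr1+/- microglia-like cells. That was above monocyte/macrophage-like cells at 254.7 ± 44.9 CPM (SD, n = 4), without overlap. Itgb1, a beta chain that pairs with many alpha chains and lies on most cells, was highest in NK-like cells at 512.9 ± 35.9 CPM and vascular-like cells at 509.8 ± 40.1 CPM, which overlapped. It reached 321.1 ± 21.2 CPM in Krt8-high cells (SD, n = 4 each). Mural-side cells had 646.3 and 652.7 CPM of Itgb1 in Cx3cr1-/- and 751.5 and 578.5 CPM in Cx3cr1+/- brains, all above the highest endothelial-side value of 515.4 CPM. Clusters were made from the same cells and genes, so every difference between classes is a description.

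Ligand and receptor values can be set side by side by brain. Vascular-like Vcam1 was highest in Cx3cr1+/- brain 2 at 572.3 CPM and next in Cx3cr1+/- brain 1 at 393.7 CPM. Itga4 in T-like cells had 107.7 and 100.4 CPM in Cx3cr1-/- and 96.9 and 135.8 CPM in Cx3cr1+/- brains, highest in Cx3cr1+/- brain 2 and lowest in Cx3cr1+/- brain 1. In monocyte/macrophage-like cells Itga4 was, like Vcam1, higher in both Cx3cr1+/- brains, at 145.1 and 142.1 CPM in Cx3cr1-/- and 161.3 and 160.5 CPM in Cx3cr1+/- brains. The log2 fold change of Itga4 there was small, at -0.15 (SE 0.10, limma adjusted p = 0.824). Itga4 in NK-like cells overlapped between genotypes, and so did Itgb1 in monocyte/macrophage-like cells. Selplg varied little beside the spread of the selectins, at 354.3 to 442.7 CPM in T-like and 258.9 to 304.5 CPM in monocyte/macrophage-like cells. Itgal in T-like cells ran from 80.7 to 141.1 CPM while vascular-like Icam1 ran from 143.0 to 233.2 CPM. With 4 brains per state no correlation was computed.

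The effect of losing the second Cx3cr1 copy was tested in every class with enough cells, across all genes above 10 CPM. No member passed an adjusted p of 0.05 in any of the 8 tests, which held 52 member-by-class comparisons, 9 of them with an unadjusted p under 0.05 (limma, Benjamini-Hochberg over all genes of the class). Among all genes tested with metastases the share called was 0.0814% in microglia-like, 0.0143% in monocyte/macrophage-like, 0% in T-like, 0.0476% in NK-like, 0% in vascular-like and 0.025% in Krt8-high cells. In naive brains it was 0.572% in microglia-like and 0.215% in T/NK-like cells. Where no gene was called, 297 genes in T-like and 918 in vascular-like cells had an unadjusted p under 0.05. Nothing in the labels says that the brains came from separate litters or days, so the p-values measure only the spread between these brains.

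Genotype ranges that did not overlap were common among all genes, and so among the members. With metastases this held for 4 of 7 members tested in microglia-like cells, 5 of 8 in monocyte/macrophage-like, 0 of 7 in T-like, 4 of 7 in NK-like, 3 of 8 in vascular-like and 0 of 2 in Krt8-high cells. The matching shares over all genes were 40.6%, 36.7%, 33.1%, 33.1%, 42.8% and 38.7%. In naive brains it held for 1 of 5 members in microglia-like cells, against 37.2% of all genes, and for 2 of 8 in T/NK-like cells, against 34.9%.

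**Figure D3:**
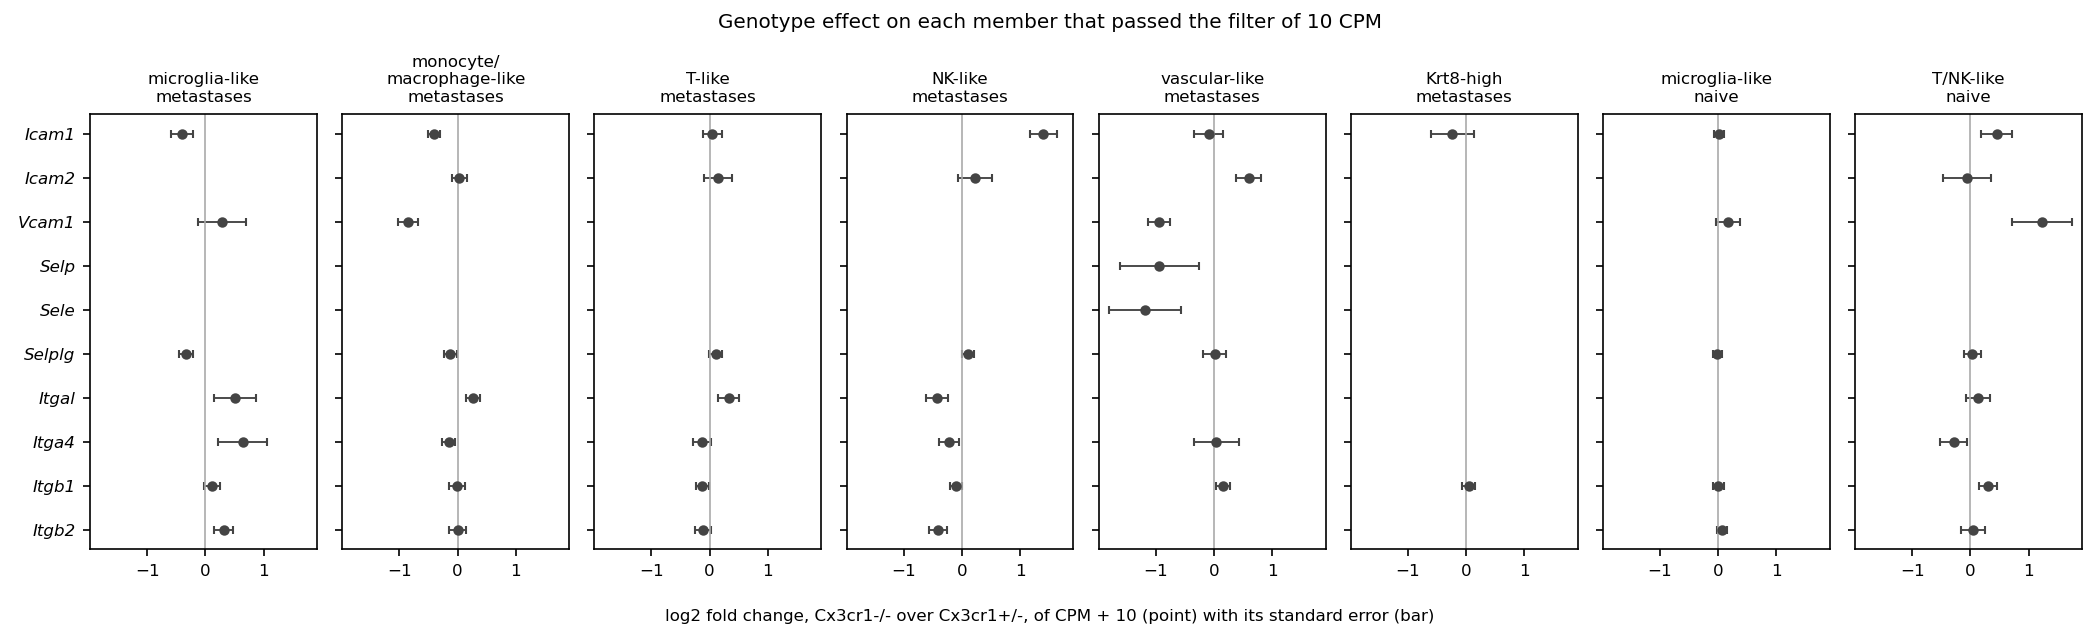
Log2 fold change of CPM + 10 in Cx3cr1-/- over Cx3cr1+/- brains (x axis; points, with standard errors as bars) for each of the 10 genes (rows) in the 8 tested classes (panels), the first 6 with metastases and the last 2 naive; a gene below the filter has no point. Icam1 in NK-like cells lies at 1.40 and Vcam1 in vascular-like cells at -0.95, and no point passed an adjusted p of 0.05.

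Vcam1 in vascular cells was lower in both Cx3cr1-/- brains than in either Cx3cr1+/- brain. Over the whole vascular-like cluster, with the brain values given for each class above, its log2 fold change was -0.95 (SE 0.19, limma adjusted p = 0.232, from 0.0169 to 0.82 over its alternatives). Restricting the fit to endothelial-side cells, an alternative chosen after seeing the data, gave -1.16 (SE 0.20, limma adjusted p = 0.0169) in a fit that called 145 of 8430 genes, or 1.72%. With each brain left out in turn the log2 fold change was -1.48 to -0.83. Such a fit takes the spread from the other genotype alone, so it cannot show that the call is stable. The call was lost without limma's variance trend (limma adjusted p = 0.212). Venous-led cells alone, only 9 of them in Cx3cr1-/- brain 2, did not overlap in Vcam1 between genotypes either. Their share of endothelial-side cells did overlap, at 38.9% and 28.1% in Cx3cr1-/- and 32.7% and 48.2% in Cx3cr1+/- brains.

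Other measures moved with vascular Vcam1. The mural list, with 7 of 7 genes present, summed to 3854 and 3633 CPM in Cx3cr1-/- and 6770 and 4816 CPM in Cx3cr1+/- vascular-like cells. Median depth of these cells was 10982 and 12320 raw UMIs in Cx3cr1-/- and 7767 and 7749 raw UMIs in Cx3cr1+/- brains. Of the 22 marker lists, 9 had sums that did not overlap between genotypes in these cells, beside 42.8% of all genes tested. In Cx3cr1-/- brains 5 of them were higher and 4 lower. The cycling list was higher, at 238 and 174 CPM in Cx3cr1-/- and 85.4 and 85.6 CPM in Cx3cr1+/- brains. So was the dendritic cell list, at 152 and 107 CPM in Cx3cr1-/- and 62.7 and 46.5 CPM in Cx3cr1+/- brains. The monocyte/macrophage list was lower, at 188 and 123 CPM in Cx3cr1-/- and 227 and 368 CPM in Cx3cr1+/- brains. Among cells of 5000 to 15000 raw UMIs the log2 fold change of Vcam1 was -0.55 (limma adjusted p = 0.763), and the part of depth and of other cells in the result was not tested beyond these fits. Icam2 ran the other way, with a log2 fold change of 0.59 (SE 0.22, limma adjusted p = 0.448), and its genotypes did not overlap; within the same depth window it was at 0.29. Selp and Sele, at -0.94 (SE 0.68) and -1.18 (SE 0.62), overlapped between genotypes, with limma adjusted p of 0.671 and 0.58. Icam1 in vascular-like cells was at -0.09 (SE 0.25).

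**Figure D4:**
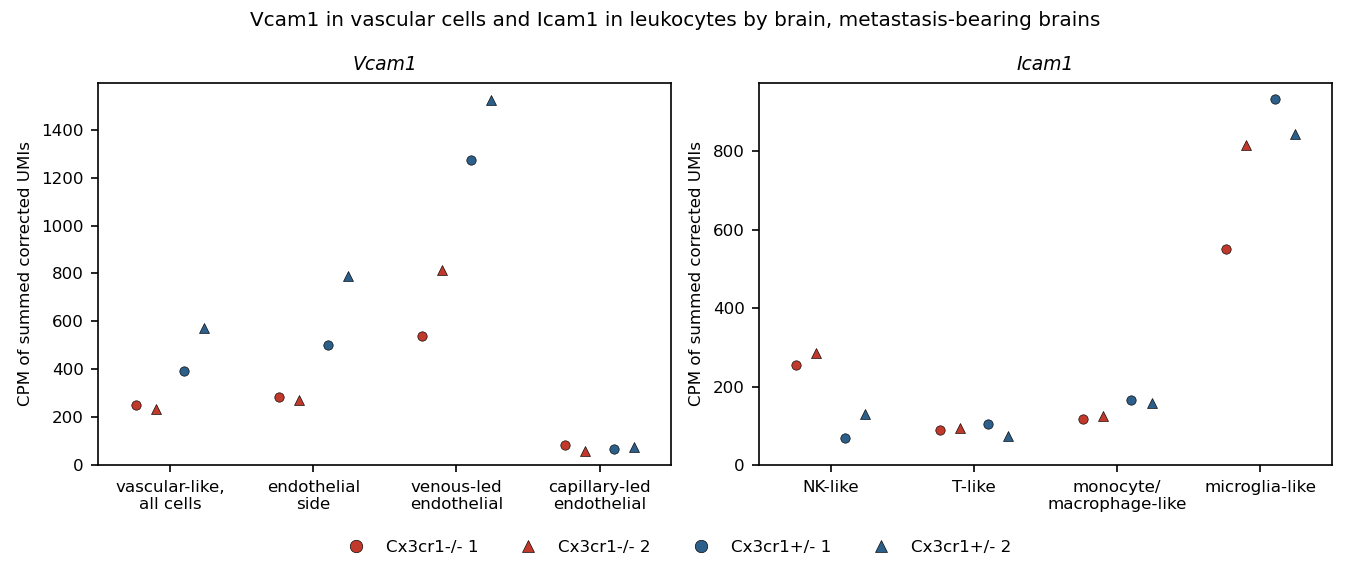
Left, Vcam1 in CPM of summed corrected UMIs in all vascular-like cells, endothelial-side cells and the venous-led and capillary-led cells among them; right, Icam1 in 4 leukocyte classes; metastasis-bearing brains, linear axes from 0, each point 1 brain, red for Cx3cr1-/- and blue for Cx3cr1+/-. Vcam1 separates by genotype in venous-led cells (539.4 and 815.4 against 1272.9 and 1523.9 CPM) and overlaps in capillary-led cells; Icam1 separates upward in Cx3cr1-/- NK-like cells (254.9 and 284.4 against 70.1 and 130.0 CPM).

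Icam1 in NK-like cells had the smallest p among the members. It had 254.9 and 284.4 CPM in Cx3cr1-/- and 70.1 and 130.0 CPM in Cx3cr1+/- brains, which did not overlap, with Cx3cr1+/- brain 1 resting on 37 cells. The log2 fold change was 1.40 (SE 0.23, limma adjusted p = 0.138, from 4.1e-38 to 0.916 over its alternatives). The lower filter of 1 CPM gave an adjusted p of 0.0040, with 0.143% of genes called, and all deposited cells gave 0.0243, with 0.174% of genes called. Leaving out Cx3cr1+/- brain 1 or 2 also took it past the threshold, at 1.00 and 1.80; such a fit takes the spread from the other genotype alone. The NK cell list, with 5 of 5 genes present, summed to 10033 and 11211 CPM in Cx3cr1-/- and 7528 and 8896 CPM in Cx3cr1+/- brains, and the microglia list, 7 of 7 genes, to 120 and 163 CPM in Cx3cr1-/- and 94.3 and 114 CPM in Cx3cr1+/- brains. The T cell list was lower, at 263 and 268 CPM in Cx3cr1-/- and 382 and 317 CPM in Cx3cr1+/- brains. Of the 22 lists, 7 did not overlap, 4 higher and 3 lower in Cx3cr1-/- brains, beside 33.1% of all genes tested in NK-like cells. Their part in the Icam1 values was not tested. The LFA-1 chains had the opposite sign in the same cells: Itgal was at -0.42 (SE 0.19) and Itgb2 at -0.41 (SE 0.15), each with a limma adjusted p of 0.927. Without Cx3cr1+/- brain 1, the one with 37 NK-like cells, they were at -0.13 and -0.20. Without Cx3cr1+/- brain 2, which leaves that brain alone, they passed the threshold at -0.71 and -0.62.

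In myeloid cells no tested member had a log2 fold change as large in size as that of Icam1 in NK-like cells. Vcam1 in monocyte/macrophage-like cells came near its vascular-like value of -0.95. Selplg in microglia-like cells was at -0.33 (SE 0.11, limma adjusted p = 0.489), and its genotypes did not overlap. Among cells of 5000 to 15000 raw UMIs it was at -0.18 (limma adjusted p = 0.866). The microglia list summed to 10891 and 10183 CPM in Cx3cr1-/- and 11852 and 11520 CPM in Cx3cr1+/- microglia-like cells, and its part was not tested. Icam1 over all microglia-like cells was at -0.40 (SE 0.19, limma adjusted p = 0.612). In monocyte/macrophage-like cells Icam1 had 116.4 and 124.7 CPM in Cx3cr1-/- and 166.9 and 159.1 CPM in Cx3cr1+/- brains, a log2 fold change of -0.41 (SE 0.11, limma adjusted p = 0.341). Vcam1 there had 7.8 and 4.8 CPM in Cx3cr1-/- and 15.6 and 23.2 CPM in Cx3cr1+/- brains, a log2 fold change of -0.84 (SE 0.17, limma adjusted p = 0.228) that passed the threshold without Cx3cr1+/- brain 1 (adjusted p = 0.0189). Of the 22 marker lists, 9 did not overlap between genotypes in monocyte/macrophage-like cells, beside 36.7% of all genes tested. In Cx3cr1-/- brains 4 of them were higher and 5 lower. The dendritic cell list was lower, at 139 and 172 CPM in Cx3cr1-/- and 288 and 311 CPM in Cx3cr1+/- brains. The NK cell list was higher, at 201 and 223 CPM in Cx3cr1-/- and 69.0 and 76.9 CPM in Cx3cr1+/- brains. The part of these lists was not tested. T-like cells had no member with separate genotype ranges. In naive brains Icam1 and Selplg in microglia-like cells were at 0.01 (SE 0.09) and -0.01 (SE 0.07). Naive T/NK-like Vcam1 had 42.9 and 5.3 CPM in Cx3cr1-/- and 2.0 and 2.3 CPM in Cx3cr1+/- brains, at 1.23 (SE 0.51, limma adjusted p = 0.891), with a UMI in 6 of 248 cells in all.

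Other genes of the adhesion cascade were followed through 5 lists: other leukocyte integrin subunits (14 genes), proteins that activate integrins from inside the cell (14), other adhesion receptors and ligands (24), enzymes that decorate selectin ligands (8), and cytokine receptors and NF-kappaB genes that act on endothelial adhesion molecules (13). No gene of any list passed the threshold in any of the 8 tests (limma); in vascular-like cells 3, 0, 7, 0 and 3 genes of the lists, in the order given, had an unadjusted p under 0.05. In vascular-like cells 7, 9, 16, 5 and 13 genes of these lists were tested, with a positive log2 fold change in 3, 4, 11, 2 and 4 of them. Their medians were -0.15, -0.08, 0.20, -0.0018 and -0.18, beside 0.01 over all 8896 genes tested. The smallest p in these cells belonged to Cd34, a sialomucin of endothelium, at 545.3 CPM in Cx3cr1-/- and 291.8 CPM in Cx3cr1+/- brains (log2 fold change 0.88, SE 0.12) and to Nectin2, a junction protein, at 66.4 CPM in Cx3cr1-/- and 25.2 CPM in Cx3cr1+/- brains (1.12, SE 0.19), each with a limma adjusted p of 0.211. Itga6, the laminin-binding alpha6 chain, was at 0.89 (SE 0.17, limma adjusted p = 0.219) and Itga5, a fibronectin-binding alpha chain, at 0.70 (SE 0.19, 0.326). Ifngr1, a chain of the interferon gamma receptor, was at -0.85 (SE 0.19, limma adjusted p = 0.267), and its partner Ifngr2 at 0.64 (SE 0.20, 0.376). Among the integrin activators Rasgrp2 was at -0.31 (SE 0.16, limma adjusted p = 0.576) and Cyth1 at 0.31 (SE 0.25, 0.704), and among the enzymes Tpst2 was at 0.13 (SE 0.15, 0.793) and B4galt1 at -0.14 (SE 0.18, 0.815).

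Whether the genotype effect itself differed between brain states was tested in microglia-like cells and in T and NK cells as 1 class. No member passed (limma), with an unadjusted p under 0.05 for Selplg in microglia-like cells alone, and 1 of 7065 genes (0.0142%) and 1 of 6406 genes (0.0156%) were called. The largest member difference in size was that of Icam1 in microglia-like cells, at -0.41 (SE 0.23, limma adjusted p = 0.655), and Selplg there was at -0.32 (SE 0.13, limma adjusted p = 0.572). In T and NK cells Itgb1 was at -0.35 (SE 0.18, limma adjusted p = 0.816).

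The states themselves are given side by side without a test, because the authors corrected each table on its own. Selplg in microglia-like cells ran from 1142.8 to 1474.0 CPM with metastases and from 1801.8 to 1983.6 CPM in naive brains, without overlap. The microglia list in the same cells summed to 10183 to 11852 CPM with metastases and 14325 to 16222 CPM in naive brains, also without overlap, and its part was not tested. Itga4 in these cells ran from 4.2 to 34.0 CPM with metastases and from 3.6 to 5.4 CPM in naive brains, and Itgal from 3.1 to 20.6 CPM and from 1.3 to 4.0 CPM. The NK cell list in them summed to 5.28 to 226 CPM with metastases and 4.45 to 6.78 CPM in naive brains. The T cell list ran from 18.5 to 213 CPM and from 7.5 to 18.7 CPM, and the neutrophil list from 117 to 1063 CPM and from 183 to 266 CPM. All of these overlapped between states, and their part was not tested. Icam1, Itgb1 and Itgb2 overlapped between states in microglia-like cells.

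Vascular-like cells of naive brains were few, with 117 in all and 3 brains with a value. Icam2 had 363.6 CPM in naive Cx3cr1-/- brain 2 and 412.9 and 286.9 CPM in the naive Cx3cr1+/- brains. Naive mural cells formed a cluster of their own, with 23 cells. Endothelial-side cells ran from 201.6 to 356.9 CPM with metastases, and in naive brains had 385.0 CPM in Cx3cr1-/- brain 2 and 436.2 and 306.5 CPM in the Cx3cr1+/- brains, and those ranges overlapped. Vcam1 had 176.5 CPM in Cx3cr1-/- brain 2 and 890.0 and 208.3 CPM in the Cx3cr1+/- brains, and 1 cell of Cx3cr1+/- brain 1 held 72 of its 194 Vcam1 UMIs. Among the cells used, the selectins were seen in that brain only, Selp in 1 cell and Sele in 2 of 117. With metastases Selp had a UMI in 39 and Sele in 25 of 454 cells. The exact 95% intervals for Selp were 6.18% to 11.6% with metastases and 0.0216% to 4.67% in naive brains, and those for Sele, 3.59% to 8.02% and 0.208% to 6.04%, overlapped. They cover counting error and not the spread between brains. Median depth was 9011 raw UMIs with metastases and 5888 in naive brains, and after thinning Selp was in 3.74% and 0.855% and Sele in 1.76% and 0.855% of cells. Mural-side cells, which had no selectin UMI, were part of the cluster with metastases and not of the naive one. Only 18 naive endothelial-side cells were venous-led (19.4% of 93), against 98 of 264 with metastases (37.1%). By brain this share ran from 17.4% to 21.4% in naive brains and from 28.1% to 48.2% with metastases. No list led in 27 of the 93 naive cells and in 25 of the 264 with metastases. Median depth of endothelial-side cells was 5464 raw UMIs in naive brains and 7285 with metastases, and its part in the shares was not tested.

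**Figure D5:**
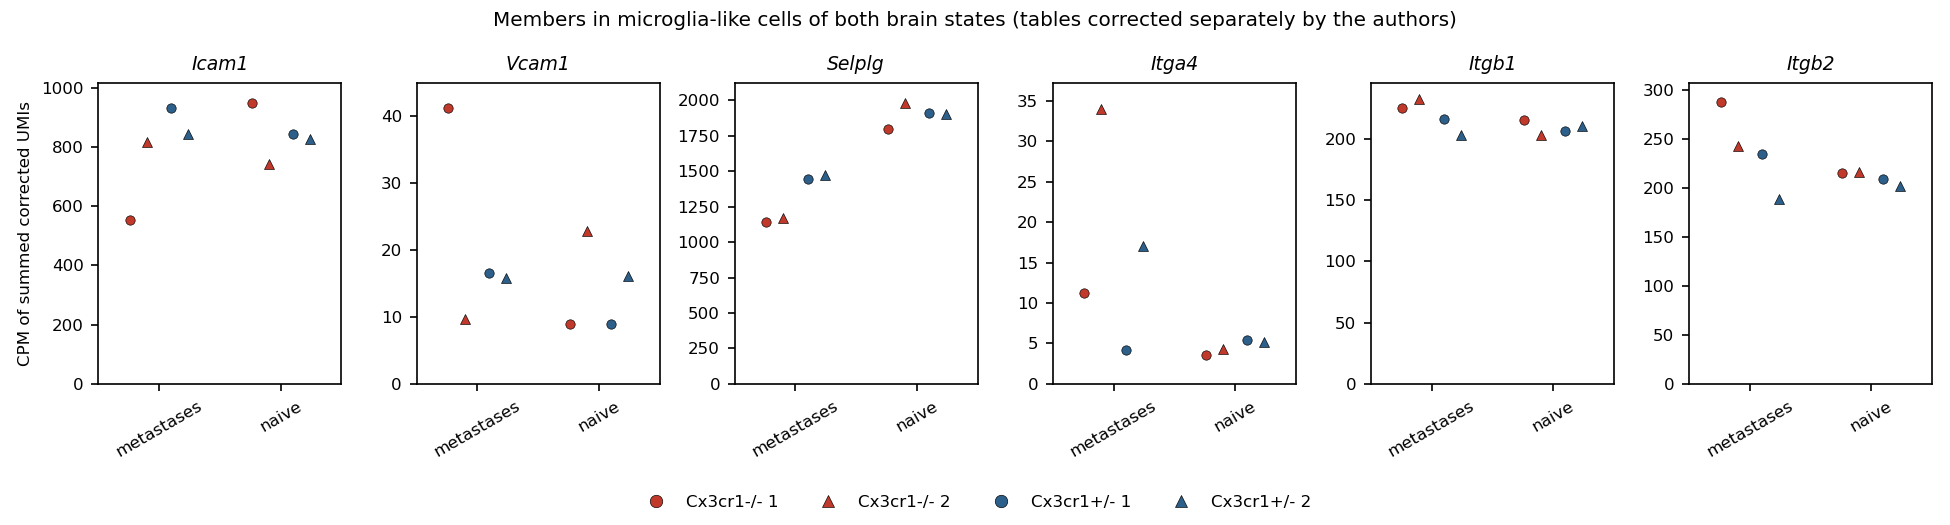
Level of 6 of the genes in microglia-like cells in CPM of summed corrected UMIs, with metastases (left in each panel) and in naive brains (right); each point is 1 brain, red for Cx3cr1-/- and blue for Cx3cr1+/-, on a linear axis from 0. Selplg lies between 1142.8 and 1474.0 CPM with metastases and between 1801.8 and 1983.6 CPM in naive brains; the tables were corrected separately, so no test was made.

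Genes whose level followed each member closely were sought over 32 class-by-brain values in 9 classes of the metastasis-bearing brains, among 8159 genes, with Pearson's r. The values share 1 library and the same cell classes, so r describes a shared distribution over classes. For the vascular ligands these included Slc39a8 (r = 0.956), Adgrl2 (0.943) and Calcrl (0.942) for Vcam1, and Rtl8b (0.950), Itm2a (0.947) and Abcb1a (0.946) for Icam2. Higd1b (0.896) and Sox17 (0.879) were among the closest to Selp, and Pir (0.817) and Higd1b again (0.808) among the closest to Sele. Mef2a (0.874) and Qk (0.871) were among the closest to Icam1. For the receptors these were Tnfaip3 (0.969), Rgs2 (0.957) and Laptm5 (0.949) for Selplg, Cxcr4 (0.963) and Atp8b4 (0.957) for Itgal, and Malt1 (0.934), Cytip (0.903) and Dusp5 (0.884) for Itga4. Itgb2 was closest to Lcp2 (0.963), Myo1f (0.955) and Stxbp2 (0.950), and Itgb1 to Pear1 (0.931), Sept7 (0.879) and Zfpm1 (0.874).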

How the data were processed

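Brain immune cells of 8 mice were measured with 3' single-cell RNA sequencing, surface antibody tags and hashtags in 1 pooled preparation. The submitters' processing notes name Cell Ranger 3.1, Seurat 3.1.1 and the mm10 build; further steps are not given in the sources used here. The deposited RNA values are on a natural log scale, ln(1 + corrected UMI), and 100% of nonzero values became whole numbers after exponentiation (relative tolerance 1e-06). The authors corrected each table on its own: the 1138 barcodes in both tables had the same raw UMI total in each and never the same corrected total (medians over all deposited cells 12115 with metastases and 7757.5 in naive brains). The deposited cell metadata hold raw UMIs and hashtag UMIs as counts, the clusters, and the hashtag and genotype of each cell.

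Corrected UMIs were summed per brain and class (at least 20 cells in every brain), scaled to CPM, filtered at a mean above 10 CPM and tested on log2(CPM + 10), which understates changes of low genes, with limma 3.58.1 in R 4.3.3 (variance trend, Benjamini-Hochberg over all genes, threshold 0.05). The corrected UMIs are model-adjusted and no raw matrix was used, so no count model was fitted. Median depth per brain was 6181 to 71585 raw UMIs per cell. Each brain is a replicate identified by its hashtag, not a separate GEO sample. Doublets across brains were left to the authors' hashtag calls, and none within a brain can be seen. Shares of cells with a UMI have exact Clopper-Pearson intervals. The fit was tested on simulated data. A log2 change of 1 was recovered for 39.5% of changed genes in naive T/NK-like and 75.5% in NK-like cells. In the other tested classes it was recovered for 85% to 100%, so a change of that size can be missed. False calls were 2.3% to 8.26% of the calls at log2 changes of 1 and 2. Members and gene lists were chosen with earlier results of these data known. The genes named are all 10 members, list genes past the threshold or else the 2 with the smallest p per list in vascular-like cells, and the 3 closest genes per member, of which some are not reported here. Surface CD49d, the Itga4 product, was among the 35 antibodies and was not analysed here.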

Additional observations from a re-analysis of the deposited data

Results flagged for a closer look

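For 4 members, every Cx3cr1-/- brain lay on 1 side of the Cx3cr1+/- brains in 1 class and on the other side in another, with metastases. The difference between the classes' genotype effects was tested by fitting genotype to the within-brain class difference, a fit chosen after seeing the data (limma, Benjamini-Hochberg over all genes). Icam1 was higher in Cx3cr1-/- NK-like cells and lower in Cx3cr1-/- microglia-like and monocyte/macrophage-like cells, a difference of 1.80 (log2, SE 0.41, adjusted p = 0.796) against microglia-like and 1.81 (SE 0.30, adjusted p = 0.91) against monocyte/macrophage-like cells. Itgb2 was higher in Cx3cr1-/- microglia-like and lower in Cx3cr1-/- NK-like cells, a difference of 0.72 (SE 0.29, adjusted p = 0.796). Itgal was higher in Cx3cr1-/- monocyte/macrophage-like and lower in Cx3cr1-/- NK-like cells, a difference of 0.69 (SE 0.25, adjusted p = 0.91). Itgb1 was higher in Cx3cr1-/- microglia-like and vascular-like cells and lower in Cx3cr1-/- NK-like cells, differences of 0.22 (SE 0.24, adjusted p = 0.872) and 0.26 (SE 0.24, adjusted p = 0.799). None of the 6 passed the threshold, and these fits called 0 of 5681, 0 of 5640 and 2 of 5810 genes. With 2 brains per genotype, ranges that do not overlap occurred for 33.1% to 42.8% of all genes in these classes. The share of all genes that separate in opposite directions between classes was not computed, so the 4 members cannot be called unusual.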

How the results depend on the processing

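The count of members past the threshold for the genotype effect was 0 in every class, and it was 1 under these alternatives: NK-like cells with a filter above 1 CPM, NK-like cells with all deposited cells, and vascular-like cells limited to the endothelial side, the last chosen after seeing the data. With 1 brain left out, so that the lone brain is assumed to vary like the others, the count ran from 0 to 1 in monocyte/macrophage-like, T-like and Krt8-high cells and in the interaction in microglia-like cells, from 0 to 4 in NK-like cells, and was 0 in the other tests. The changes came without Cx3cr1+/- brain 1 in monocyte/macrophage-like cells (Vcam1), without Cx3cr1+/- brain 2 in T-like cells, without either of them in NK-like and Krt8-high cells, and without metastasis-bearing Cx3cr1-/- brain 2 in the interaction. Such fits also raised the count over all genes, as in NK-like cells from 3 to as many as 920 and in Krt8-high cells from 2 to as many as 2024. Of 317 member results under the other alternatives, 295 kept direction and side of the threshold, 3 passed it and 19 changed sign, and of 204 with a brain left out these were 157, 8 and 39; 26 of the 52 comparisons changed sign somewhere. The 9 with an unadjusted p under 0.05 did not change sign in any alternative. Mean levels in the highest class moved by less than 1 SD in all 50 cases, which says nothing for the selectins in naive vascular-like cells, whose SD exceeds the mean. With naive cells limited to at least 100 hashtag UMIs, chosen after seeing the data, 2 brains kept a value there, and Selp went to 0.0 CPM, against 16.8 CPM, Sele to 0.0 CPM, against 19.9 CPM, and Vcam1 to 253.1 CPM, against 424.9 CPM. With all deposited cells, which keep the barcodes found in both tables, 4 naive brains had a value in vascular-like cells. Sele then ran from 2.6 to 46.6 CPM over these brains and Selp from 0.0 to 39.4 CPM. Without Lcn2 in the venous list the Vcam1 difference moved to 2.46. The fit on cells of 5000 to 15000 raw UMIs was not run in NK-like and Krt8-high cells, where a brain kept under 20 cells. No paired analysis was possible because the labels give the brains no replicate number shared between genotypes. Among all genes the counts called in naive microglia-like cells ran from 2 to 41 under the other alternatives, against 44. Low counts limit Selp and Sele, which had 184 and 106 corrected UMIs in all vascular-like cells with metastases.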
